A study of Mus musculus with 6 samples.

Results

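The V-type proton pump (V-ATPase) was followed at the RNA level in Cebpa-mutant acute myeloid leukemia (AML) through 10 subunit genes, 5 of the membrane domain V0 (Atp6v0c, Atp6v0a1, Atp6v0b, Atp6v0d1 and Atp6v0e) and 5 of the soluble domain V1 (Atp6v1a, Atp6v1b2, Atp6v1c1, Atp6v1d and Atp6v1h). They are 10 of the 53458 genes in the quantification. The 10 genes were chosen by their symbols, with the contrast between the genotypes described here already known, so their values in that contrast are given as a description without a test and support no statement about the pump. The samples were AML blasts from the bone marrow of C57BL/6 mice, 3 of genotype Cebpa-/p30 Tet2+/+ (mice 19, 23 and 24) and 3 of genotype Cebpa-/p30 Tet2-/- (mice 5, 7 and 8), with 1 RNA-seq library per mouse. All 6 leukemias therefore carried the same Cebpa alleles, an allele that makes the short p30 isoform beside a deleted allele, and the comparison asks what the absence of Tet2, the gene of a DNA demethylase, adds to it. Per the study's methods, donor marrow with floxed alleles and the Mx1-Cre transgene, which is active in many tissues after interferon induction, was transplanted into irradiated congenic recipients and recombined with Poly(I)-Poly(C), so that among the recipient's tissues only donor-derived blood cells carried the deletions. The cells were sorted as live CD45.2+ cells without CD3, B220 and Ter119, a gate that leaves out host cells and cells with these T cell, B cell and erythroid markers but can hold mature neutrophils, monocytes and macrophages as well as blasts.

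The V-ATPase pumps protons into lysosomes, endosomes and granules at the cost of ATP. Its soluble V1 domain hydrolyses ATP and turns a central stalk, and the rotation drives a ring of proteolipid subunits in the V0 domain that carries protons across the membrane. The acid that it makes is needed by lysosomal enzymes and for the release of iron from transferrin, and the assembled pump also takes part in amino acid sensing by mTORC1 on the lysosome. Several subunits exist as isoforms from separate genes with different tissue distributions, such as the a3 subunit Tcirg1, which is known from osteoclasts.

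The libraries held between 13036643 and 32855343 estimated reads, the deepest from mouse 5 and the shallowest from mouse 24. CPM are read counts relative to the TMM-normalised library size, and TPM, as deposited, also take transcript length into account. Tet2 had 73.6, 79.5 and 98.4 CPM in the Tet2+/+ mice (in the order 19, 23, 24) and 111, 79.4 and 96.7 CPM in the Tet2-/- mice (in the order 5, 7, 8), so the genotypes overlapped in reads of the whole gene. The reads of a gene that has lost an exon can remain, and this sum does not check the labels. The primary granule gene Mpo, which marks myeloid blasts and promyelocytes, had 4527, 4110 and 4230 CPM in the Tet2+/+ mice and 3394, 3091 and 2662 CPM in the Tet2-/- mice, without overlap (log2 fold change -0.49, SE 0.25, adjusted p = 0.664 from edgeR). The granule proteases Prtn3 and Elane overlapped, with log2 fold changes of 0.07 (SE 0.33) and 1.19 (SE 0.64). Of 10 blast markers 5 were above and 5 below 0 with a median of 0.00. At an unadjusted p under 0.05 edgeR had 1 higher and 1 lower, beside 8.11% of all genes tested in either direction. After adjustment edgeR called 0, as did DESeq2. The 2 genes at an unadjusted p under 0.05, Ms4a3 and Cd34, were chosen after their values were seen. The granulocyte-monocyte progenitor gene Ms4a3 had 248, 137 and 193 CPM against 331, 291 and 311 CPM (log2 fold change 0.69, SE 0.24, adjusted p = 0.580 from edgeR). The stem and progenitor cell gene Cd34 had 170, 310 and 193 CPM against 90.0, 32.1 and 132 CPM (log2 fold change -1.41, SE 0.50, adjusted p = 0.582 from edgeR). The part of these differences in the values of the subunits was not tested. The 10 mature neutrophil genes summed to 57168, 10919 and 41058 CPM in the Tet2+/+ mice and to 63205, 115337 and 24414 CPM in the Tet2-/- mice, so that mouse 7 stood highest and mouse 23 lowest. The 12 monocyte and macrophage genes summed to 2338, 2974 and 1640 CPM and to 3893, 2486 and 4910 CPM in the same order, with mouse 8 highest and mouse 24 lowest. Ly6c2 was the largest part of this sum in each mouse, and the other 11 genes, a split chosen after the values were seen, summed to 715, 1546 and 591 CPM and to 899, 362 and 2415 CPM, with mouse 8 highest and mouse 7 lowest. In bulk RNA a smaller share of cells of a type and less RNA per cell cannot be told apart.

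Per transcript length, the proteolipid genes of the membrane ring were the most abundant of the 10. Atp6v0c, the c subunit, averaged 300 TPM over the 6 mice (range 232 to 369), and Atp6v0b, the c'' subunit of the same ring, averaged 214 TPM (range 171 to 260). Atp6v0e, a small membrane subunit, followed with 115 TPM (range 96.2 to 128). These 3 stood in the same order in all 6 mice, although the ranges of Atp6v0c and Atp6v0b overlapped between mice. The next 6 formed a chain of neighbours whose ranges overlapped. Atp6v0d1, which links the ring to the central stalk, and Atp6v1b2, the B2 subunit of the V1 hexamer, were level at 52.4 and 52.3 TPM, and each was the higher in 3 of 6 mice. Below them came Atp6v1c1 (44.2 TPM), Atp6v0a1 (40.5 TPM), the catalytic Atp6v1a (38.6 TPM) and Atp6v1d (34.7 TPM). Atp6v1h, the regulatory H subunit, was the lowest at 22.6 TPM (range 18.96 to 30.5) and lay below Atp6v1d in all 6 mice.

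The isoform genes showed which forms of the pump these cells transcribe. Of the 4 genes for the a subunit, which forms the proton path beside the ring, Tcirg1 held between 66.7% and 79.9% of the TPM of the family, Atp6v0a1 between 10.1% and 18.7%, and Atp6v0a2 between 10.0% and 16.8%. Atp6v0a4, an isoform known from kidney, reached at most 1 read in a mouse. Atp6v0d1 held at least 99.01% of the d subunit family in every mouse and Atp6v0e at least 98.9% of the e family. Atp6v1b2 was alone in its family, since Atp6v1b1, the B1 isoform of kidney and inner ear, was at 0 reads in all 6 mice, and Atp6v1e2 was also at 0 beside 195 TPM of Atp6v1e1. Atp6v1c2 reached at most 5 reads in a mouse, against 3085 reads for Atp6v1c1. Atp6v1g1 (53.1 TPM) held between 85.9% and 94.1% of the G family, and the remainder was nearly all Atp6v1g2 (4.78 TPM). Each family with more than 1 transcribed isoform therefore kept the same leading gene in all 6 mice. The 10 genes leave out several abundant subunits, since Tcirg1 (204 TPM), Atp6v1e1 (195 TPM) and the accessory subunit Atp6ap1 (176 TPM) stood above 8 of the 10.

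**Figure D1:**
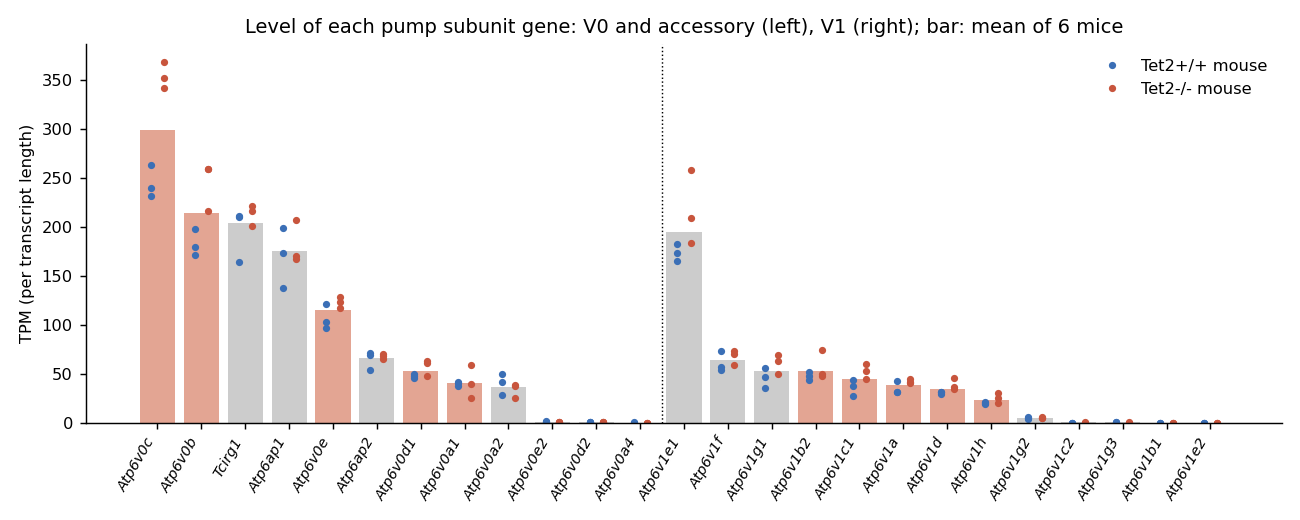
TPM (linear scale, per transcript length) of the 25 pump subunit genes, with bars for the mean of the 6 mice and points for single mice (blue Tet2+/+, red Tet2-/-). Red bars are the 10 subunit genes and grey bars the others. Atp6v0c leads at 300 TPM, and the isoform genes at the right end of each domain are at or near 0.

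RefSeq promoters of GRCm38.p6, from 250 bases before to 50 bases after a start site, were available for 7 of the 10 genes, as 9 promoters of which 3 belong to Atp6v0c. Atp6v1b2, Atp6v1c1 and Atp6v1h had no entry. The letters CACGTG, the E-box core that MiT/TFE factors and MYC can bind, read the same on both strands. They were found in promoters of 4 genes (Atp6v0b, Atp6v0d1, Atp6v0e and Atp6v1a) with 5 matches, while 7.15% of all 32851 promoters of that length held them. The 5 matches are shown with 12 bases on each side, 5' to 3' in the direction of the gene, with CACGTG in capitals.
Atp6v0b, chr4:117887348-117887377, minus strand: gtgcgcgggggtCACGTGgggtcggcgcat
Atp6v0b, chr4:117887330-117887359, minus strand: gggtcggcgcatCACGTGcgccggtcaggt
Atp6v0d1, chr8:105566050-105566079, minus strand: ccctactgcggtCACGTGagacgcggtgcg
Atp6v1a, chr16:44139373-44139402, minus strand: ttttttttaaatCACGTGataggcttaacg
Atp6v0e, chr17:26676387-26676416, plus strand: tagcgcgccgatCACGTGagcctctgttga
The 10-letter palindrome of the CLEAR element, which is CACGTG preceded by GT and followed by AC, was in none of the 9 promoters and in 0.326% of all promoters. Of the 5 matches, 2 were preceded by GT, the upstream one of Atp6v0b and the one of Atp6v0d1, and 0 were followed by AC. In Atp6v0b the matches begin 36 and 18 bases before the start site and in Atp6v0d1 3 bases before it, whereas in Atp6v1a the match begins 131 bases before the start site and in Atp6v0e at base 4 after it. GGGCGG, the GC box of Sp1-type factors, was found on either strand in promoters of 5 genes (Atp6v0a1, Atp6v0b, Atp6v0c, Atp6v0e and Atp6v1d), beside 35.7% of all promoters. Both motifs were present in Atp6v0b and Atp6v0e. A match is a description of letters in this window and not a binding site.

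Stretches before the RefSeq start site are given for Atp6v0b and Atp6v1a, which hold CACGTG there, and for Atp6v0e with its GC boxes, with CACGTG and GGGCGG in capitals. They lie outside every annotated exon of the gene, but those of Atp6v1a and Atp6v0e lie within the gene, since the annotation places the start of other transcripts further upstream (for Atp6v0e, transcripts that were not among those quantified).
Atp6v0b, chr4:117887334-117887579, GRCm38.p6, minus strand: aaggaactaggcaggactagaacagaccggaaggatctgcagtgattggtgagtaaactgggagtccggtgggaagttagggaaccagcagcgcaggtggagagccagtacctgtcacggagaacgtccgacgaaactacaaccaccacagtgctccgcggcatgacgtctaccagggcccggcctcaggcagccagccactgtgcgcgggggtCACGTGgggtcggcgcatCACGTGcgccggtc
Atp6v1a, chr16:44139306-44139461, GRCm38.p6, minus strand: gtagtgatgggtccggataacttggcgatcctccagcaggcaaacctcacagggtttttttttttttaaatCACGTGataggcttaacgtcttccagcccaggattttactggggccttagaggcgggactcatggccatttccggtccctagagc
Atp6v0e, chr17:26676315-26676369, GRCm38.p6, plus strand: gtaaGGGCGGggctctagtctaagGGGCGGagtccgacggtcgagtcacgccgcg

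In the membrane domain, Atp6v0c (ENSMUSG00000024121, chr17:24163866-24169702 of GRCm38, as all gene positions here, minus strand) showed the clearest distance between the genotypes. It had 379, 310 and 287 CPM in the Tet2+/+ mice and 533, 521 and 497 CPM in the Tet2-/- mice. All 3 Tet2-/- mice lay above all 3 Tet2+/+ mice, and the Tet2-/- mice were close to each other. The means were 517 ± 18.2 CPM (SD, n = 3) in Tet2-/- blasts and 326 ± 47.9 CPM (SD, n = 3) in Tet2+/+ blasts, a log2 fold change of 0.67 (SE 0.19, edgeR), or 1.59-fold. Its coding sequence has processed pseudogenes, and Atp6v0c-ps2 (chr6:37806086-37806550) matches the main transcript at 99.8% identity over 465 bases, 39.3% of its length. The division of reads between them is therefore uncertain. Atp6v0c-ps2 had 14.5, 12.8 and 11.5 CPM in the Tet2+/+ mice and 32.6, 32.8 and 20.6 CPM in the Tet2-/- mice, between 3.83% and 6.30% of the level of Atp6v0c. With the reads of both pseudogenes added to Atp6v0c, a choice made after the values were seen, the log2 ratio of the means was 0.69.

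Atp6v0b (ENSMUSG00000033379, chr4:117884326-117887333, minus strand), whose promoter holds 2 CACGTG matches, had 115, 123 and 109 CPM in the Tet2+/+ mice and 145, 178 and 165 CPM in the Tet2-/- mice. The genotypes did not overlap. The means were 163 ± 16.8 and 116 ± 7.02 CPM (SD, n = 3 each), with a log2 fold change of 0.49 (SE 0.16). The antisense gene Gm12841 shares 1670 bases of the locus, and the library kit does not mark strand, but Gm12841 reached at most 1.67 CPM. Atp6v0d1 (ENSMUSG00000013160, chr8:105524465-105566047, minus strand) had 110, 91.9 and 84.0 CPM against 118, 147 and 126 CPM, with mouse 7 highest and no overlap. Its log2 fold change was 0.45 (SE 0.18). Atp6v0e (ENSMUSG00000015575, chr17:26663231-26699647, plus strand) had 98.2, 104 and 85.6 CPM against 126, 121 and 107 CPM. The lowest Tet2-/- mouse, mouse 8, lay just above mouse 23, and the log2 fold change was 0.30 (SE 0.16).

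Atp6v0a1 (ENSMUSG00000019302, chr11:101009452-101063719, plus strand), the a1 isoform that is known from neurons, was the exception in the membrane domain. It had 87.9, 89.5 and 91.7 CPM in the Tet2+/+ mice and 75.7, 144 and 86.5 CPM in the Tet2-/- mice. Mouse 7 alone stood high, and mice 5 and 8 were below all 3 Tet2+/+ mice. The log2 fold change of 0.19 (SE 0.26) became -0.15 without mouse 7, the mouse with the highest sum of mature neutrophil genes, 115337 CPM. Mouse 5, with the next highest sum of 63205 CPM, had the lowest Atp6v0a1. The part of neutrophil content in this value was not tested.

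In the soluble domain, the catalytic A subunit Atp6v1a (ENSMUSG00000052459, chr16:44085402-44139705, minus strand) had 181, 198 and 151 CPM in the Tet2+/+ mice and 233, 241 and 240 CPM in the Tet2-/- mice. As with Atp6v0c, the 3 Tet2-/- mice were close to each other and all above the Tet2+/+ mice. The means were 238 ± 4.32 and 177 ± 23.4 CPM (SD, n = 3 each), with a log2 fold change of 0.43 (SE 0.17), or 1.35-fold. Atp6v1b2 (ENSMUSG00000006273, chr8:69088646-69113711, plus strand), its non-catalytic partner in the hexamer, had 189, 186 and 162 CPM against 215, 190 and 301 CPM. Mouse 7 lay only just above mouse 19, and mouse 8 stood far above the other 5. The log2 fold change of 0.40 (SE 0.22) was 0.18 without mouse 8, the mouse with the highest sum of monocyte and macrophage genes, 4910 CPM. The part of these cells in the value was not tested.

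Atp6v1c1 (ENSMUSG00000022295, chr15:38661933-38692446, plus strand), which leaves V1 when the pump is taken apart, had 95.5, 74.6 and 57.5 CPM against 97.6, 95.5 and 118 CPM. Mouse 7 lay a fraction below mouse 19, so the genotypes overlapped slightly. The log2 fold change of 0.45 (SE 0.22) was 0.28 without mouse 24 and 0.65 without mouse 19. Atp6v1d (ENSMUSG00000021114, chr12:78840725-78861638, minus strand), the D subunit of the central stalk, had 56.1, 51.6 and 49.6 CPM against 65.0, 80.0 and 54.9 CPM. Mouse 8 lay below mouse 19, and the log2 fold change of 0.34 (SE 0.18) was 0.19 without mouse 7. Atp6v1h (ENSMUSG00000033793, chr1:5070018-5162529, plus strand), which restrains ATP hydrolysis by free V1, had 49.3, 50.8 and 48.1 CPM against 54.8, 51.7 and 59.2 CPM. The genotypes did not overlap, with a log2 fold change of 0.16 (SE 0.14) that was 0.11 without mouse 8.

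**Figure D2:**
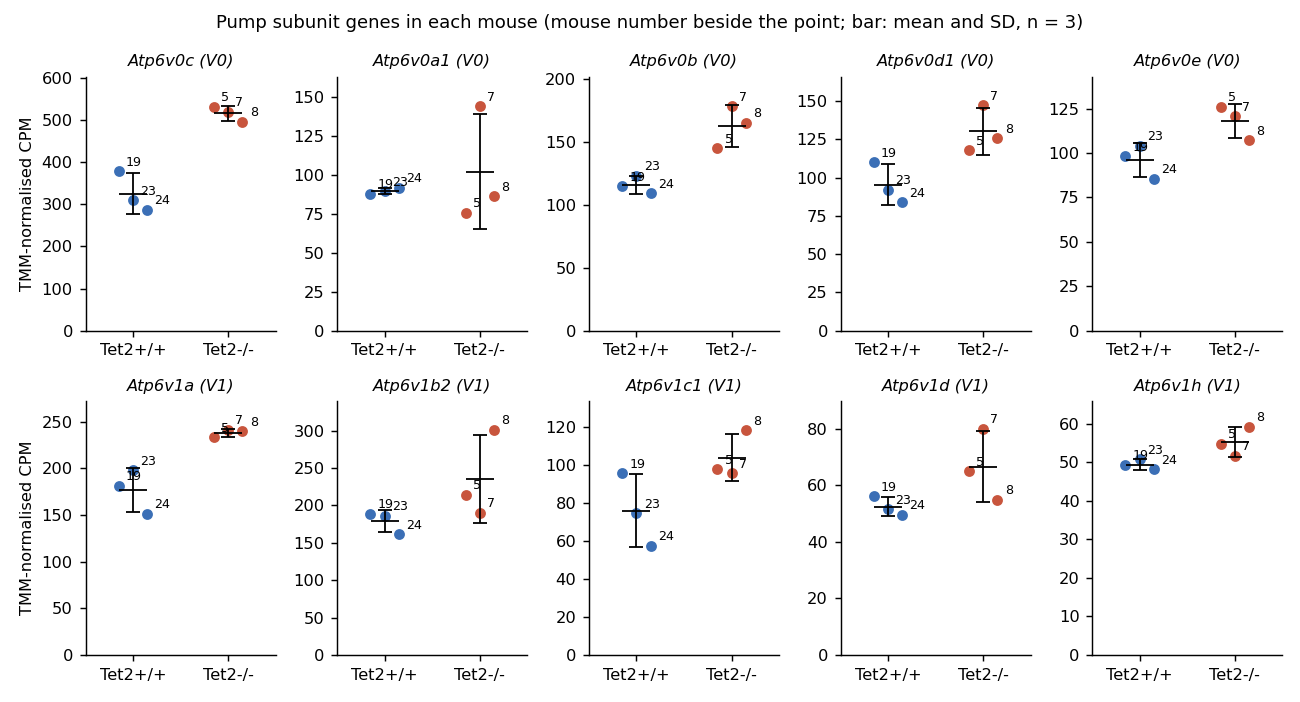
TMM-normalised CPM (linear scale) of the 10 subunit genes in each mouse, with the mouse number beside each point, blue for Tet2+/+ and red for Tet2-/-, and bars for mean and SD (n = 3). The genotypes are apart in 7 panels and overlap for Atp6v0a1, Atp6v1c1 and Atp6v1d, and mouse 24 is the lowest in 9 of the 10 panels.

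All 10 log2 fold changes were above 0, with a median of 0.41 and a range of 0.16 to 0.67. Among the 9175 genes that averaged 10 CPM or more, 64.0% were above 0 and the median was 0.10, and among all 22170 genes tested the median was 0.00. The Tet2-/- mice lay above the Tet2+/+ mice without overlap for 7 of the 10 genes, beside 10.8% of these 9175 genes. These counts describe genes chosen with this contrast known, and nothing is read from the difference to the background. The sum of the 10 genes was 1362, 1280 and 1126 CPM in the Tet2+/+ mice and 1662, 1770 and 1755 CPM in the Tet2-/- mice. Mouse 24 held the lowest value of 9 genes, Atp6v0a1 being the exception, and the highest values fell on mouse 7 for 5 genes, mouse 8 for 3 and mouse 5 for 2. Under scaling to the library size without TMM factors, the median of all genes moved to -0.17, and relative to that median all 10 remained above, although Atp6v0a1 and Atp6v1h turned to -0.01 in absolute terms.

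The membrane and the soluble domain differed little in this contrast. The median log2 fold change was 0.45 for the 5 V0 genes and 0.40 for the 5 V1 genes. Each gene was then expressed as its log2 CPM relative to its own mean over the 6 mice. The V0 genes averaged -0.12, -0.18 and -0.32 in the Tet2+/+ mice and 0.10, 0.39 and 0.13 in the Tet2-/- mice. The V1 genes averaged -0.06, -0.13 and -0.35 and 0.13, 0.14 and 0.26 in the same order. Both domains were below zero in every Tet2+/+ mouse and above it in every Tet2-/- mouse, and in the Tet2-/- group mouse 7 led in V0 and mouse 8 in V1. The difference V0 minus V1 was 0.03 ± 0.20 (SD, n = 3) in Tet2-/- blasts and -0.03 ± 0.05 (SD, n = 3) in Tet2+/+ blasts, and the mice overlapped, with 0.25 in mouse 7 and -0.14 in mouse 8. The mean log2 fold change of V0 exceeded that of V1 by 0.06, which became -0.06 without mouse 7 and -0.05 on length-scaled counts. Per length, the 5 V0 genes summed to 820 ± 52.8 TPM in Tet2-/- and 622 ± 21.2 TPM in Tet2+/+ blasts (SD, n = 3 each), and the 5 V1 genes to 216 ± 23.6 and 169 ± 13.5 TPM.

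**Figure D3:**
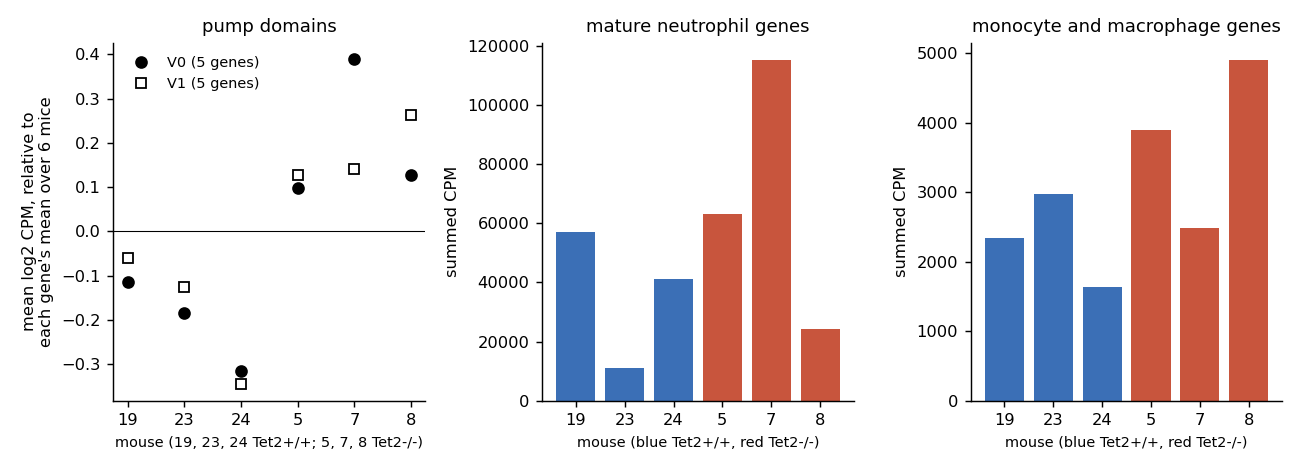
Left, mean log2 CPM of the 5 V0 genes (filled circles) and the 5 V1 genes (open squares) in each mouse, relative to each gene's own mean over the 6 mice. Middle and right, summed CPM of 10 mature neutrophil and 12 monocyte and macrophage genes (blue Tet2+/+, red Tet2-/-). V0 lies between -0.32 in mouse 24 and 0.39 in mouse 7, and the neutrophil sum between 10919 CPM in mouse 23 and 115337 CPM in mouse 7.

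The pump genes outside the 10 lay mostly on the same side of zero, but none passed the test. Of 15 other subunit and accessory genes, 10 were tested, and the quasi-likelihood test of edgeR, adjusted over all genes by the Benjamini-Hochberg method, called 0 higher and 0 lower, beside 0% of all genes called higher and 0.0451% called lower. At an unadjusted p under 0.05 it had 1 higher and 0 lower, beside 8.11% of all genes in either direction, and DESeq2 called 0, beside 0.266% of all genes higher and 1.47% lower. The log2 fold change was above 0 for 9 of the 10, with a median of 0.28. Of the 9175 genes that averaged 10 CPM or more, 64.0% were above 0, with a median of 0.10. Atp6v0d2, Atp6v0e2 and Atp6v1g2 averaged less than 10 CPM, and nothing is read from these counts. The 1 gene at an unadjusted p under 0.05 was Atp6v1e1, the E1 subunit of the peripheral stalks, with 136, 104 and 106 CPM in the Tet2+/+ mice and 149, 195 and 152 CPM in the Tet2-/- mice, a log2 fold change of 0.52 (SE 0.19, adjusted p = 0.592 from edgeR). Its genotypes did not overlap, nor did those of Tcirg1 and Atp6ap1. These are 3 of the 10 tested genes, beside 10.8% of the 9175 genes with every Tet2-/- mouse above every Tet2+/+ mouse. Tcirg1 had 248, 288 and 278 CPM against 324, 352 and 322 CPM (log2 fold change 0.30, SE 0.16, adjusted p = 0.684 from edgeR). Atp6ap1, the accessory subunit Ac45, had 176, 214 and 186 CPM against 220, 225 and 247 CPM (log2 fold change 0.26, SE 0.16, adjusted p = 0.725 from edgeR).

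The remaining tested subunits overlapped between the genotypes. Atp6v1g1 of the peripheral stalks had a log2 fold change of 0.51 (SE 0.25), and its partner isoform Atp6v1g2 0.42 (SE 0.32). Atp6v1f of the central stalk had 0.27 (SE 0.19), the accessory prorenin receptor Atp6ap2 0.15 (SE 0.16), and Atp6v0a2, the a2 isoform, 0.03 (SE 0.15). The largest value, 0.80 (SE 0.82) for the osteoclast isoform Atp6v0d2, and the only negative one, -0.53 (SE 0.45) for Atp6v0e2, belonged to genes of at most 2.28 and 1.12 CPM. The adjusted p of these 7 genes lay between 0.661 and 0.982 with edgeR. Atp6v0a4, Atp6v1b1, Atp6v1c2, Atp6v1e2 and Atp6v1g3 did not reach the count minimum.

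**Figure D4:**
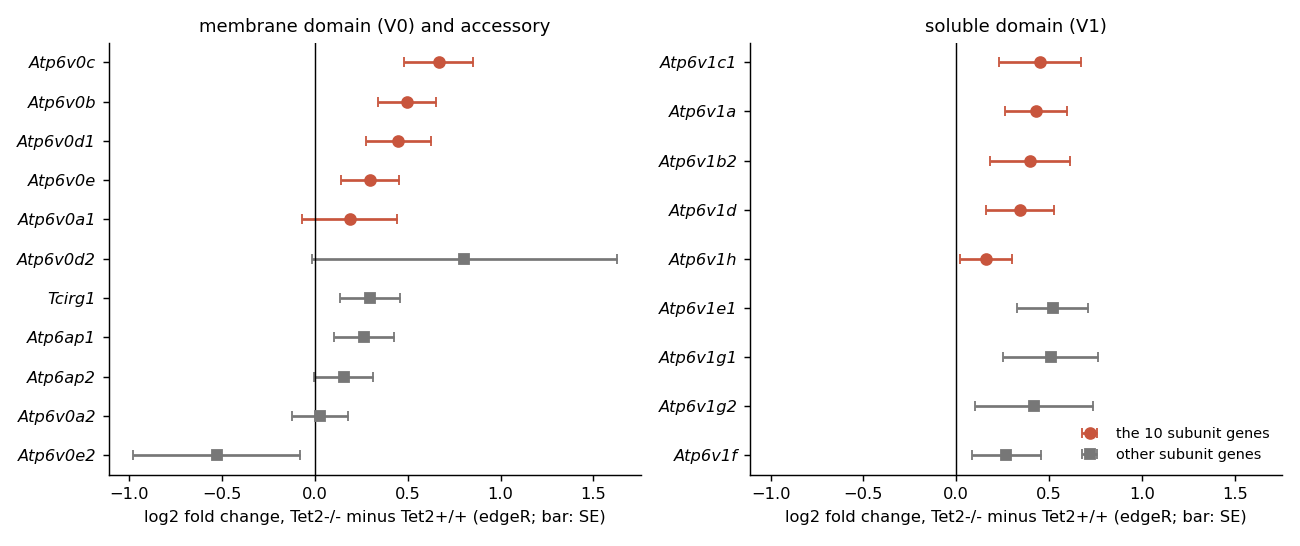
Log2 fold change (Tet2-/- minus Tet2+/+) with SE from edgeR for the 10 subunit genes (red circles) and the 10 other tested pump genes (grey squares), V0 and accessory genes at the left and V1 at the right. The red points lie between 0.16 and 0.67, and Atp6v0e2 is the only point below 0.

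The estimated reads of a gene are divided by Salmon among its transcripts, and the division has an error of its own that was not used here. The 10 genes had 60 transcripts in the quantification. Of the 22 transcripts that held on average between 5% and 95% of their gene, 4 had a higher and 3 a lower share in every Tet2-/- mouse than in any Tet2+/+ mouse, beside 6.58% and 7.43% of 21532 such transcripts over all genes that averaged 10 CPM or more. Shares within a gene sum to 100%, so a higher and a lower share are not separate events. Atp6v1a was divided between Atp6v1a-202, which starts at 44139305, and Atp6v1a-201, which starts at 44139196 on the minus strand. Atp6v1a-202 held 42.5%, 43.5% and 49.5% of the reads in the Tet2+/+ mice and 53.2%, 52.2% and 60.4% in the Tet2-/- mice, and Atp6v1a-201 held 55.4%, 52.6% and 47.2% against 44.0%, 44.9% and 36.3%. The leading transcript was thus Atp6v1a-201 in mice 19 and 23 and Atp6v1a-202 in the other 4.

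A minor form of Atp6v0a1 also differed without overlap. Atp6v0a1-210, a coding transcript that starts near the upstream end of the gene, held 4.29%, 3.10% and 2.61% in the Tet2+/+ mice and 9.67%, 10.7% and 15.2% in the Tet2-/- mice, while Atp6v0a1-202 led with 60.8% to 75.1% in all 6. In Atp6v0e, the minor Atp6v0e-202 held 7.27% to 9.80% in the Tet2+/+ mice and 4.43% to 5.87% in the Tet2-/- mice. Atp6v1h was unlike the others in that 1 mouse stood apart. Its transcript Atp6v1h-204 held 34.4%, 44.9% and 35.5% in the Tet2+/+ mice and 36.7%, 32.7% and 13.05% in the Tet2-/- mice, the last of them mouse 8, and Atp6v1h-201 held 77.1% in mouse 8 beside between 49.2% and 61.4% in the other 5. On length-scaled counts, which depend on this division, the log2 fold change of Atp6v1h was 0.42 rather than 0.16.

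The share of reads on coding transcripts differed between the 10 genes more than between the mice. It was 100% for Atp6v0e and at least 93.5% for Atp6v0d1, Atp6v1a, Atp6v1b2 and Atp6v1h in every mouse. In Atp6v0b it lay between 65.7% and 72.3%, with 21.5% to 27.1% on the retained-intron form Atp6v0b-204. In Atp6v1d it lay between 58.9% and 64.9%, with 32.7% to 37.2% on the retained-intron form Atp6v1d-202. It lay between 74.5% and 86.5% in Atp6v1c1, between 81.3% and 90.3% in Atp6v0a1 and between 82.4% and 91.0% in Atp6v0c. The CPM of these genes therefore include reads assigned to forms that are not annotated as coding.

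**Figure D5:**
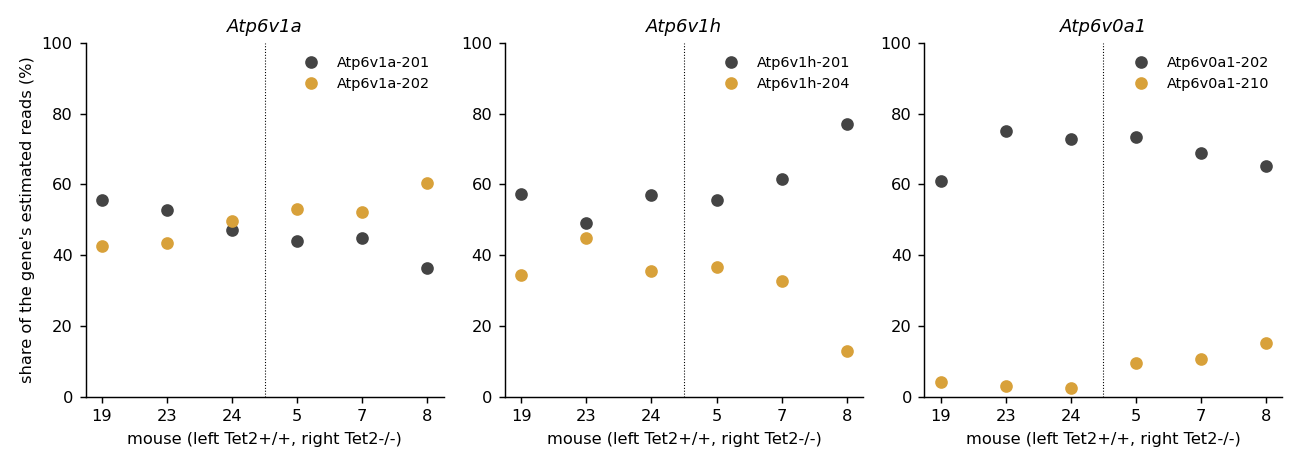
Share of a gene's estimated reads (percent, linear scale) on 2 transcripts each of Atp6v1a, Atp6v1h and Atp6v0a1 in the 6 mice, with Tet2+/+ left and Tet2-/- right of the dotted line. Atp6v1a-202 exceeds Atp6v1a-201 in mice 24, 5, 7 and 8, and Atp6v1h-204 is lowest in mouse 8, at 13.05%.

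The pathway around the pump was described by lists, and in every list edgeR's quasi-likelihood test called 0 genes at an adjusted p under 0.05. The counts of each list stand beside 64.0% of the genes of 10 CPM or more above 0. They also stand beside 8.11% of all genes tested at an unadjusted p under 0.05 with edgeR. DESeq2 called 0.266% of all genes higher and 1.47% lower, and nothing particular to a list is read from these counts. The lysosomal anchor of mTORC1, to which the pump binds, had 7 of 10 genes above 0 and a median log2 fold change of 0.27, with 3 higher at an unadjusted p under 0.05 and 1 called by DESeq2 (0 on length-scaled counts). Its most abundant genes, the Ragulator subunits Lamtor4, Lamtor1 and Lamtor2, had log2 fold changes of 0.58 (SE 0.22), 0.40 (SE 0.16) and 0.51 (SE 0.23), with adjusted p of 0.599, 0.604 and 0.639 from edgeR. Of the MiT/TFE factors, which bind CLEAR elements, Tfeb had 37.3, 46.4 and 39.7 CPM in the Tet2+/+ mice and 42.0, 65.3 and 65.9 CPM in the Tet2-/- mice. Mice 7 and 8 stood high, mouse 5 did not, and Tfe3 was alike with 41.0 CPM in mouse 5 and 88.3 and 90.7 CPM in mice 7 and 8. The log2 fold changes were 0.49 (SE 0.22) for Tfeb, 0.51 (SE 0.31) for Tfe3 and -0.40 (SE 0.41) for Tfec, 0 of the 4 factors had an unadjusted p under 0.05, and DESeq2 called 0.

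Of 40 lysosomal hydrolases and membrane proteins, 28 were above 0 with a median of 0.17, 2 were higher at an unadjusted p under 0.05, and DESeq2 called 1 higher (0 on length-scaled counts). The most abundant had log2 fold changes of 0.35 (SE 0.46) for the saposin precursor Psap, 0.41 (SE 0.21) for the tetraspanin Cd63 and 0.28 (SE 0.23) for progranulin, Grn. Psap was highest in mouse 8, with 3014 CPM, and lowest in mouse 24, with 1002 CPM. All 8 genes of iron and receptor-mediated uptake were above 0 with a median of 0.25, 0 had an unadjusted p under 0.05, and DESeq2 called 0. Ferritin light chain Ftl1 had 0.23 (SE 0.26), ferritin heavy chain Fth1 0.37 (SE 0.20) and the phagosomal metal transporter Slc11a1 0.79 (SE 0.43). The assembly factors of the pump were divided, with 5 of 9 tested genes above 0 and a median of 0.05, 0 at an unadjusted p under 0.05 and 0 called by DESeq2. The TLDc protein Oxr1 had 0.30 (SE 0.15), Dmxl2 of the RAVE-like complex 0.42 (SE 0.28) and Rogdi of the same complex -0.19 (SE 0.35).

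Markers of other cells that use the pump heavily were followed for the same mice. Mature neutrophil genes were all 10 above 0 with a median log2 fold change of 0.89, but overlapped between the genotypes for every gene, with 0 at an unadjusted p under 0.05 and 0 called by DESeq2, and S100a9 ranged from 3597 CPM in mouse 23 to 33163 CPM in mouse 7. Monocyte and macrophage genes were above 0 for 11 of 12 with a median of 0.89, 1 of them at an unadjusted p under 0.05 and 1 called by DESeq2. Their most abundant, Ly6c2, did not overlap, with 1623, 1428 and 1049 CPM against 2993, 2124 and 2495 CPM (log2 fold change 0.89, SE 0.27, adjusted p = 0.512 from edgeR). It was the only 1 of the 12 without overlap, beside 10.8% of the genes of 10 CPM or more. The macrophage markers Adgre1 and Cd68 had log2 fold changes of 0.17 (SE 0.49) and -0.02 (SE 0.41). C1qa, a gene of resident macrophages chosen after its values were seen, had between 1.86 and 26.2 CPM. Osteoclast genes, whose cells carry much pump at their surface, were above 0 for 5 of 5 tested with a median of 0.88, 0 at an unadjusted p under 0.05 and 0 called by DESeq2. The acid phosphatase Acp5 had at most 15.5 CPM (log2 fold change 0.88, SE 0.46) and Ctsk at most 5.75 CPM, while Mmp9, which neutrophils also make, reached 4209 CPM in mouse 7. Calcr, chosen after its values were seen, was at 0 reads. The summed erythroid genes had 146, 6.16 and 6.20 CPM in the Tet2+/+ mice and 14.6, 15.3 and 7.76 CPM in the Tet2-/- mice. Mouse 19 alone stood high in this sum, and mice 23 and 24 lay below every Tet2-/- mouse. The B and plasma, T and NK and plasmacytoid dendritic lists summed to at most 265, 132 and 205 CPM. Several of the less abundant lists had a median log2 fold change below 0, with 0 genes called by edgeR after adjustment in each. The median log2 fold change was -2.13 for erythroid genes (8 of 8 tested below 0), -0.84 for B and plasma cell genes (7 of 8), -0.77 for eosinophil genes (5 of 7), -0.49 for basophil and mast cell genes (3 of 6), -0.48 for megakaryocyte and platelet genes (5 of 6), -0.32 for plasmacytoid dendritic genes (4 of 6) and 0.03 for T and NK genes (4 of 9). At an unadjusted p under 0.05 edgeR had 2 lower genes in each of the B and plasma, eosinophil, and basophil and mast lists and 1 in each of the other 4. DESeq2 called 2 lower in each of the B and plasma and the basophil and mast lists, 1 in each of the eosinophil, T and NK, and plasmacytoid dendritic lists, and 0 of the erythroid and megakaryocyte genes. The mast cell protease gene Cpa3 had 263, 362 and 336 CPM in the Tet2+/+ mice and 87.7, 47.5 and 16.8 CPM in the Tet2-/- mice (log2 fold change -2.66, SE 0.55, adjusted p = 0.283 from edgeR). The other basophil and mast gene at unadjusted p under 0.05 was Gata2 (log2 fold change -2.10, SE 0.30, adjusted p = 0.117 from edgeR). The study reports lower Gata2 in Tet2-deficient AML blasts. Mcpt8 had -0.99 (SE 0.55), while Hdc had 0.996 (SE 0.67), Ms4a2 0.48 (SE 0.53) and Il1rl1 0.005 (SE 0.72). Gata2, Ms4a2 and Il1rl1 were chosen after their values were seen. The part of mast cell content in these values was not tested. The subunit genes were not adjusted for any of these sums, and the part of cell composition in their values was not tested.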

How the data were processed

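RNA-seq of sorted AML blasts from 3 Tet2+/+ and 3 Tet2-/- mice was analysed. TruSeq RNA v2 libraries, which do not mark strand, were sequenced by the authors on a NextSeq 500. Transcripts of GRCm38 (Ensembl 94) were quantified with Salmon 0.12.0 per the submitters' processing notes. The estimated count of reads per transcript was deposited by the authors without normalisation between mice, and the TPM values were deposited as Salmon made them. The counts were added up here by gene (GENCODE M21) and rounded, and 112 transcripts without a gene (0.0307% to 0.0416% of reads) were left out.

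Genes with normalized counts summing to at least 10 were tested with edgeR 4.0.16 (TMM, quasi-likelihood test, Benjamini-Hochberg adjustment, threshold 0.05) in R 4.3.3, without covariates. The SE was taken as the size of the log2 fold change over the root of its F statistic. The TMM factors were 0.867 to 1.11 and the biological coefficient of variation was 43.6%. DESeq2 1.42.0, length-scaled counts made from TPM, other filters and scalings, and leaving out each mouse were alternatives. The test was also run on simulated counts with planted changes, where it missed many of them. A gene without a call is therefore not shown to be unchanged. Near copies of transcripts were sought with BLAST+ 2.17.0 at 95% identity or more, and overlapping genes in the annotation. Promoters came from RefSeq.

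The members and lists were chosen with earlier results of these data known. The named genes are the 10 members, all other pump subunits, at most the 3 genes of highest mean TPM and any gene passing the test in every other list, and the 5 genes of at least 10 CPM outside the pump lists whose log2 CPM correlated best with the members' mean. Further genes named from the lists were chosen after their values were seen, as stated where they appear. Each mouse has 1 library, and the labels do not name the donor of its marrow, so mice of a genotype may share a donor. No batch is given, and the mouse numbers do not pair the groups.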

Additional observations from a re-analysis of the deposited data

How the results depend on the processing

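With 3 mice a genotype, counts of calls depended on the test. Against 10 genes lower and 0 higher with edgeR, DESeq2 called 326 lower and 59 higher, DESeq2 on length-scaled counts 322 and 64, edgeR on length-scaled counts 5 lower, and edgeR without a filter 62 lower and 4 higher. The filterByExpr filter and RLE factors each gave 1 higher. Without single mice, edgeR called from 0 to 7 lower and 0 higher. The cause of these differences was not tested. For the other pump subunits, every alternative gave 0 lower and 0 higher. Scaling by library size only lowered the median log2 fold change of the 10 subunit genes from 0.41 to 0.25, of the membrane domain from 0.45 to 0.27 and of the soluble domain from 0.40 to 0.24, since it moved the median of all genes by a similar amount. Leaving out each mouse moved these medians between 0.31 and 0.44, 0.35 and 0.51, and 0.30 and 0.44, and the membrane minus soluble difference between -0.06 and 0.16. Of 131 values of single subunits under the alternatives, 7 moved by more than the spread within the genotypes, 5 of them under library size only and 2 for Atp6v1h on length-scaled counts. No paired analysis was possible because the 2 genotypes share no mouse number.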

Other observations

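Among 9148 genes outside the pump lists with a mean of at least 10 CPM, the 5 whose log2 CPM over the 6 mice was most like the mean of the standardized subunit values were Arf1, a GTPase of Golgi vesicle coats (Pearson r = 0.997), Arpc1b, a subunit of the Arp2/3 actin complex (r = 0.994), the general transcription factor Gtf2b (r = 0.990), the elongation factor Supt4a (r = 0.989) and the kinase Map2k3 (r = 0.989). These r describe 6 samples that include the genotype difference, and the best of many genes is high by selection. The log2 fold changes of the 5 genes lay between 0.30 and 0.49. The processed pseudogene Atp6v0c-ps2, chosen after its values were seen, had a log2 fold change of 1.15 (SE 0.25, unadjusted p = 0.0022 and adjusted p = 0.294 from edgeR), beside 0.67 for Atp6v0c, and the difference between them was not tested.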
